A study of Mus musculus with 4 samples.

Results

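Transcript levels of 8 genes linked to ageing and regression of the corpus luteum were followed in ovary RNA. The genes were Akr1c18, Akr1c14, Ptgfr, Sfrp4, Parm1, Runx2, Onecut2 and Lgmn. They were taken by name from a table of 21958 genes, and each name matched 1 row. The 8 were picked with their levels in these same libraries already known, so those levels are given as a description, without a test.

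The series compares ++Oxtr mice, which overexpress the oxytocin receptor and whose genotype is labelled tg, with wild-type (WT) mice, labelled wt. RNA of their ovaries was sequenced at diestrus, the quiet stage of the rodent cycle when corpora lutea are present, as ++Oxtr replicates 3 and 4 and WT replicates 5 and 6. The labels and design text used here do not give the promoter that drives the transgene, the strain, the age of the females, the day within the cycle or pregnancy history. Nor do they say whether each library came from 1 animal. The stated aim is to find genes through which the receptor acts on follicle development. Library totals ran from 15229810 to 16517764 read counts. Oxtr itself was at 109 and 161 CPM (read counts scaled to library size, with TMM factors) in ++Oxtr replicates 3 and 4, against 29.2 and 55.4 CPM in WT replicates 5 and 6, in the order the labels give.

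The corpus luteum forms from the follicle after ovulation and makes progesterone until it regresses. In rodents its regression is marked by the enzyme Akr1c18, a hydroxysteroid dehydrogenase that turns progesterone into a metabolite with little progestational activity. Prolactin keeps that gene low through STAT5, while prostaglandin F2alpha, acting on its receptor Ptgfr, raises it. Corpora lutea of earlier cycles can persist in a mouse ovary beside new ones.

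The 8 genes did not behave as 1 group, so the name luteal ageing is used for the list and not for a shared pattern. Akr1c18, Ptgfr, Sfrp4, Runx2, Onecut2 and Lgmn were each at least 2-fold higher in WT replicate 6 than in WT replicate 5, while Akr1c14 and Parm1 were within 2-fold. For Akr1c18, Ptgfr, Sfrp4 and Onecut2 the step was at least 8-fold. That held for 0.173% of the genes with at least 50 counts over the 4 libraries. Of all 14999 genes with at least 50 counts over the 4 libraries, 2.39% were at least 2-fold higher in WT replicate 6 than in WT replicate 5. All counts of genes with such a step use CPM with 0.5 added. Since the 6 genes were picked on these levels, nothing is read from their share. WT replicate 6 also stood apart over all 14999 genes. There 49 genes, with Akr1c18, Ptgfr, Sfrp4, Runx2 and Onecut2 among them, were at least 4-fold above every other library. In ++Oxtr replicates 3 and 4 and WT replicate 5 such genes numbered 0, 7 and 4. ++Oxtr replicate 3 stood apart in the other direction, with 343 genes at least 4-fold below every other library, while no other library had more than 3.

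**Figure D1:**
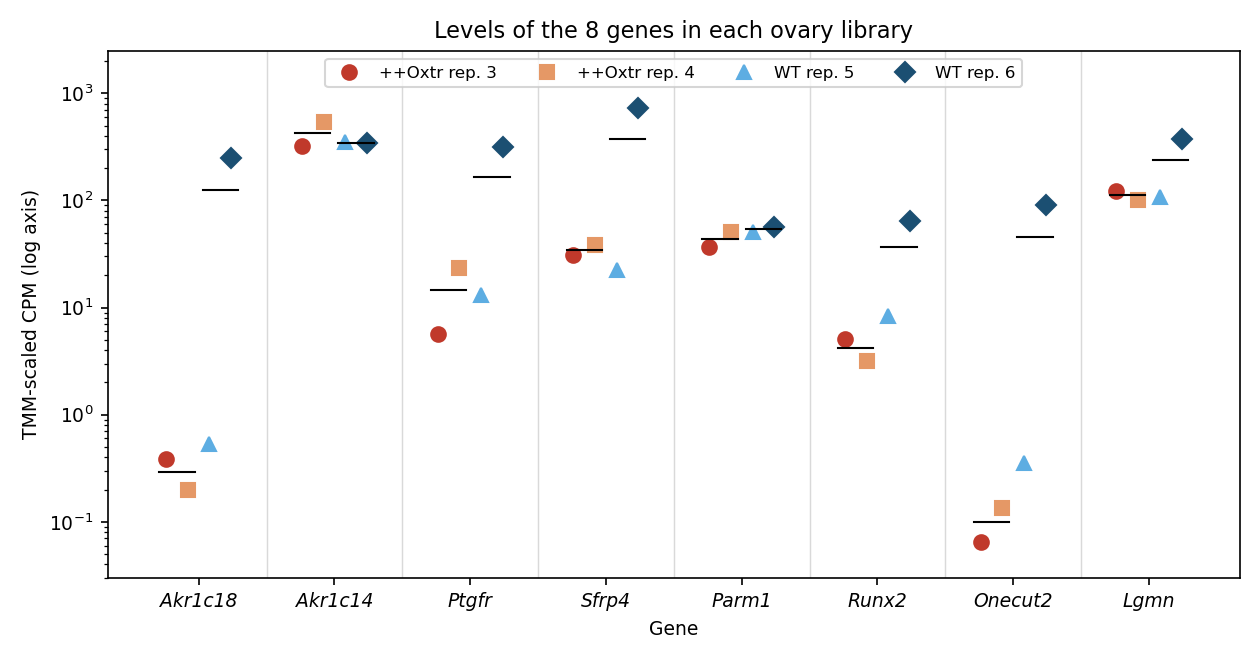
TMM-scaled CPM on a log axis for each of the 8 genes, with 1 point per library and short black lines at the mean of each genotype (2 libraries each). The WT replicate 6 points of Akr1c18 (252 CPM) and Onecut2 (91.3 CPM) sit far above the other 3 libraries, which are all under 1 CPM, while the 4 points of Akr1c14 lie between 322 and 540 CPM.

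Akr1c18 (ENSMUSG00000021214), the progesterone-inactivating enzyme, had 6 and 3 read counts in ++Oxtr replicates 3 and 4, and 9 and 4016 in WT replicates 5 and 6. In CPM this was 0.388 and 0.200 in ++Oxtr, against 0.535 and 252 in WT. The transcript was thus near the limit of detection in 3 libraries, where 3 counts correspond to 0.178 to 0.200 CPM, and abundant in the fourth. The deposited FPKM, a level scaled to gene length and library size, was 0.326 and 0.162 in ++Oxtr, 0.451 in WT replicate 5 and 207 in WT replicate 6. By that level Akr1c18 ranked 14398 and 15577 among all genes in ++Oxtr replicates 3 and 4, and 14335 and 126 in WT replicates 5 and 6. The ratio of WT replicate 6 to WT replicate 5 was 471 (95% interval 248 to 1030, exact conditional binomial, counting error only). It was the highest such ratio of all 14999 genes when 0.5 was added to each CPM. Among the 3 low libraries no order could be told, since ++Oxtr replicate 3 over WT replicate 5 gave 0.726 (0.213 to 2.28) and ++Oxtr replicate 4 over WT replicate 5 gave 0.374 (0.0652 to 1.4997).

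As group means Akr1c18 was at 0.294 ± 0.133 CPM in ++Oxtr and 126 ± 178 CPM in WT (SD, n = 2 each). The SD in WT was above the mean, so the difference between genotypes was smaller than the spread between the WT libraries. Both WT libraries lay above both ++Oxtr libraries, as they did for Onecut2, Runx2 and Parm1, 4 of the 8 genes. Over the 18310 genes with a count, 11.3% were lower in both ++Oxtr libraries than in both WT libraries, and 14.4% were higher in both. Nothing is read from the 4 of 8, since the levels chose the genes. In bulk RNA, more cells of a type and more RNA per cell cannot be told apart.

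By the deposited table, which names no build, Akr1c18 spans 4182614 to 4200653 of chromosome 13 on the minus strand, within a cluster of related aldo-keto reductase genes. Akr1c14 (ENSMUSG00000033715), which reduces the keto group of steroids such as dihydrotestosterone, starts at -101.6 kb from it on the plus strand, measured between the 5′ ends of both genes in that table. The sequences before the start of both genes are shown because the neighbours differed so widely in level across the libraries. Each is the 250 bases upstream of the RefSeq start on build GRCm38.p6, 5′ to 3′, at chr13:4150647-4150896, minus strand, and chr13:4059341-4059590, plus strand. These coordinates are not on the scale of the deposited table, so the 2 sets of positions are not to be combined. Capitals mark any match to the 6 motifs given further on, and neither sequence has one.
Akr1c18: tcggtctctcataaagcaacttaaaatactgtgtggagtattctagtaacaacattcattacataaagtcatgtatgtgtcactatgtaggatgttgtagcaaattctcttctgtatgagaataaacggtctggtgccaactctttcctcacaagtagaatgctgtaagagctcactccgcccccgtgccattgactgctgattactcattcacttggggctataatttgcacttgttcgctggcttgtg
Akr1c14: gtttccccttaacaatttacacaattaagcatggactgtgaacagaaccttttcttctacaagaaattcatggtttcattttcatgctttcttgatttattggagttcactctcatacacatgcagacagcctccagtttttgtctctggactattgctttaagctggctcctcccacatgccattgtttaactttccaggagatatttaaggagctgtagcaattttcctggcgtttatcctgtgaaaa
The guanine and cytosine content was 41.6% for Akr1c18 and 38.8% for Akr1c14, both below the median of 52.4% over 32851 RefSeq promoter windows of the same length.

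Akr1c14 was at 322 and 540 CPM in ++Oxtr replicates 3 and 4, against 350 and 343 CPM in WT replicates 5 and 6. Its highest level was in ++Oxtr replicate 4, and the genotypes overlapped. The means were 431 ± 154 CPM in ++Oxtr and 347 ± 5.52 CPM in WT (SD, n = 2 each). The ratio of WT replicate 6 to WT replicate 5 was 0.978 (95% interval 0.942 to 1.01). In FPKM, Akr1c14 was above Akr1c18 in the ++Oxtr libraries and in WT replicate 5 (101, 163 and 110 for Akr1c14), and below it in WT replicate 6, at 105 against 207.

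The other Akr1c genes of the cluster, enzymes of the same family, did not have the Akr1c18 pattern. Akr1c13 had 46 and 112 counts in ++Oxtr and 157 and 106 in WT, in the order of replicate numbers. Akr1c19 had 41 and 42 counts in ++Oxtr and 46 and 16 in WT, and was thus lowest where Akr1c18 was highest. Akr1c12 had 7 and 27 against 17 and 18 counts, and Akr1c21 had 15 and 9 against 8 and 11. Akr1c20 had 1 count in ++Oxtr replicate 3 and 0 in the other libraries. Akr1c6 was at 0 counts throughout, a result that allows at most 3 counts a library, or 0.178 to 0.200 CPM. The relative Akr1e1 at the far end was level, with 9.42 and 9.86 FPKM in ++Oxtr and 10.5 and 9.67 FPKM in WT. Akr1cl, a relative on another chromosome, was the most abundant gene of the list, at 335 and 207 FPKM in ++Oxtr and 256 and 463 FPKM in WT. Of the 8 listed relatives present in the table, 0 of the 5 with at least 50 counts were at least 2-fold higher in WT replicate 6 than in WT replicate 5.

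**Figure D2:**
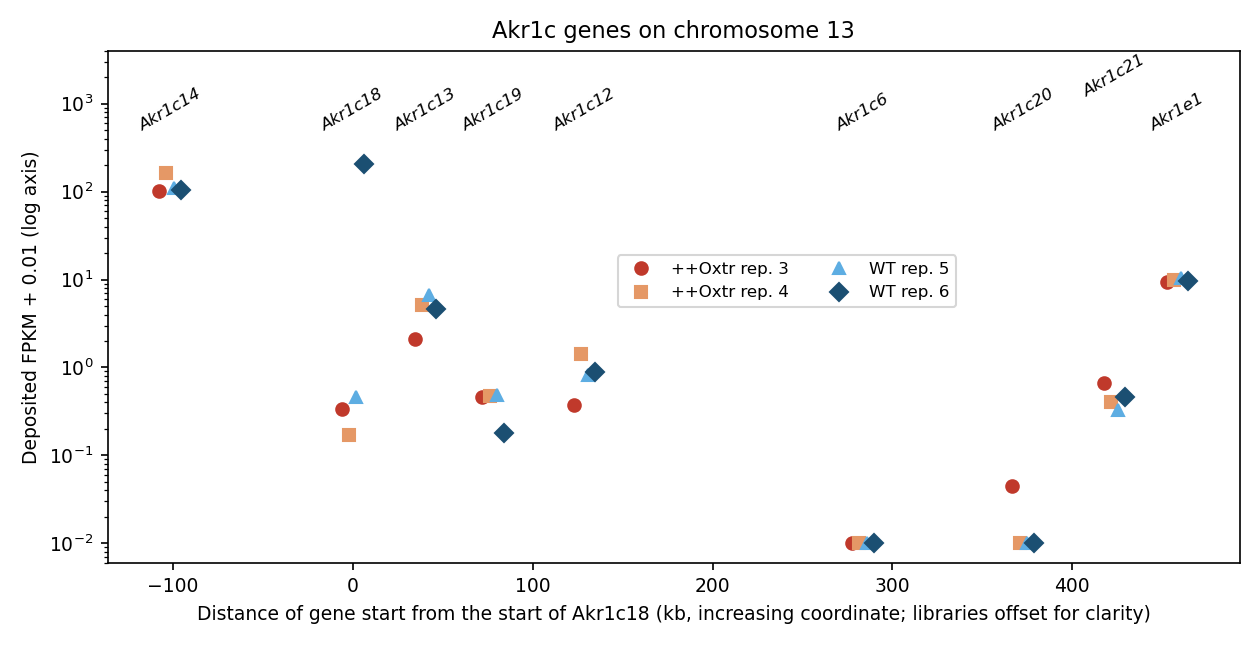
Deposited FPKM plus 0.01 (log axis) of the Akr1c genes on chromosome 13 and of Akr1e1, by distance of each gene's start from that of Akr1c18 in kilobases. Akr1c18 spans 0.162 to 207 FPKM over the 4 libraries, while Akr1c14 at one side stays between 101 and 163 FPKM.

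Reads shared between such relatives can blur their counts. Of 1151 windows of 50 bases in the longest protein-coding Akr1c18 transcript of GENCODE M21, 7 (0.608%) occurred in a transcript of another gene, with Akr1cl first. For Akr1c14 the share was 5.90%, all of it with Gm18857. It was 0.325% for Sfrp4, 0.0124% for Onecut2 and 0 for Parm1 and Lgmn. Runx2 had 8.15%, most of it with the antisense gene Runx2os1, and Ptgfr had 4.73%, most of it with Gm43618. These shares do not give the size of a count error, which also depends on the level of the sharing gene and on how shared reads were counted. Akr1cl had 13340 to 31406 counts per library. Whether its reads entered the 6, 3 and 9 counts of Akr1c18 in the low libraries was not tested.

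Ptgfr (ENSMUSG00000028036, minus strand of chromosome 3, 151502139 to 151543267 by the deposited table) encodes the prostaglandin F2alpha receptor, which signals through Gq. It was at 5.63 and 23.6 CPM in ++Oxtr replicates 3 and 4, against 13.2 and 315 CPM in WT replicates 5 and 6. The level in WT replicate 6 was 23.9 times that in WT replicate 5 (95% interval 20.9 to 27.5). With 0.5 added to each CPM, the ratio was the seventh highest of the 14999 genes. The genotypes overlapped, because WT replicate 5 lay between the 2 ++Oxtr libraries. Means were 14.6 ± 12.7 CPM in ++Oxtr and 164 ± 214 CPM in WT (SD, n = 2 each).

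Ptgfr was also the only one of the 8 with at least a 2-fold step from ++Oxtr replicate 3 to ++Oxtr replicate 4 on CPM with 0.5 added, at a ratio of 4.20 (3.31 to 5.37). Over all genes with at least 50 counts, 8.07% had such a step. Smooth muscle markers summed lowest in ++Oxtr replicate 3, as Ptgfr was. The 5 on the list summed to 1703 and 4041 CPM in ++Oxtr replicates 3 and 4, and to 3094 and 2230 CPM in WT replicates 5 and 6. Of these 5, Acta2 had 851 and 1837 CPM in ++Oxtr and 1410 and 1061 CPM in WT, and none of the list was at 0. The 6 oviduct epithelium markers summed to 45.4 and 2963 CPM in ++Oxtr and to 2360 and 929 CPM in WT, and none was at 0. Their part in the Ptgfr levels was not tested.

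No other gene on the prostaglandin lists had the step of Ptgfr within WT. Of 15 other genes of prostaglandin F2alpha synthesis, removal and signalling with at least 50 counts, 0 were at least 2-fold higher in WT replicate 6 than in WT replicate 5, and 2 were at most at 0.5 times. These 2 were the synthesis genes Ptgs1 and Ptgs2, named after their values were seen. Ptgs1 was at 21.9 and 21.0 CPM in ++Oxtr and 22.5 and 9.66 CPM in WT. Ptgs2 was at 1.62 and 7.88 CPM in ++Oxtr and 6.42 and 1.88 CPM in WT. Hpgd, which breaks prostaglandins down, was at 180 and 160 CPM in ++Oxtr and 143 and 86.6 CPM in WT. Prkcd, a protein kinase C, was at 257 and 233 CPM in ++Oxtr and 253 and 189 CPM in WT, and Gna11, a G protein subunit of the Gq class, at 100.3 and 107 against 110 and 106 CPM. Among other prostanoid receptors, 0 of 6 with at least 50 counts had a 2-fold step within WT on CPM with 0.5 added. Without that addition Ptgdr2, a receptor of prostaglandin D, had a ratio of 2.03, from 14 and 27 counts in WT replicates 5 and 6. Ptger4, a receptor of prostaglandin E, was at 3.42 and 5.72 FPKM in ++Oxtr and 4.999 and 2.70 FPKM in WT. The thromboxane receptor gene Tbxa2r was at 2.46 and 4.73 FPKM in ++Oxtr and 3.66 and 2.17 FPKM in WT. Ptgfr, at 0.843 and 3.41 FPKM in ++Oxtr, 1.98 in WT replicate 5 and 46.1 in WT replicate 6, was thus below Ptger4 in 3 libraries and above it in WT replicate 6.

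Sfrp4 (ENSMUSG00000021319, plus strand of chromosome 13, 19807274 to 19817164 by the deposited table) encodes a secreted protein that binds WNT ligands and is known from rodent luteal cells. It was at 30.7 and 38.2 CPM in ++Oxtr replicates 3 and 4, against 22.6 and 727 CPM in WT replicates 5 and 6. Unlike Akr1c18, it was well above the detection limit in every library, with 380 counts in its lowest. WT replicate 5 was the lowest of the 4 and WT replicate 6 the highest, so the genotypes overlapped. The ratio of WT replicate 6 to WT replicate 5 was 32.2 (95% interval 29.0 to 35.7), the sixth highest of the 14999 genes. Means were 34.4 ± 5.30 CPM in ++Oxtr and 375 ± 498 CPM in WT (SD, n = 2 each). In FPKM Sfrp4 was at 7.45 and 8.93 in ++Oxtr and 5.50 and 172 in WT.

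Most other genes of the SFRP and WNT4 list had no such step within WT. Sfrp1, another secreted WNT-binding protein, was at 108 and 102 CPM in ++Oxtr and 102 and 120 CPM in WT. Ctnnb1, the gene of beta-catenin, was at 430.2 and 551 CPM in ++Oxtr and 498 and 524 CPM in WT. Dkk3, a relative of WNT inhibitors, was at 136 and 244 CPM in ++Oxtr and 178 and 157 CPM in WT. Of the 9 listed genes other than Sfrp4, 2 were at least 2-fold higher in WT replicate 6 than in WT replicate 5, namely Wnt4 and the receptor gene Fzd1, both named after their values were seen. Wnt4, a ligand of the ovary, was at 76.8 and 43.8 CPM in ++Oxtr and 51.8 and 129 CPM in WT.

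Runx2 (ENSMUSG00000039153) and Onecut2 (ENSMUSG00000045991) encode transcription factors. Runx2 directs bone formation and is also induced in luteinising granulosa cells of rodents, while Onecut2 is known from liver and pancreas development. Onecut2, at 64473091 to 64534058 of chromosome 18 on the plus strand, had 1 and 2 counts in ++Oxtr replicates 3 and 4 and 6 and 1455 in WT replicates 5 and 6. That was 0.0647 and 0.133 CPM in ++Oxtr and 0.357 and 91.3 CPM in WT. As for Akr1c18, 3 libraries were near the detection limit and 1 was not. The ratio of WT replicate 6 to WT replicate 5 was 256 (95% interval 117 to 698). Per length it remained a modest transcript, at 5.57 FPKM in WT replicate 6 (rank 8321), because the listed gene length is 16234 bases. Onecut1 had 3 and 1 counts in ++Oxtr and 1 and 6 in WT, and Onecut3 had 0 in every library.

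Runx2, which spans 44806874 to 45125684 of chromosome 17 by the deposited table, on the minus strand, was at 5.11 and 3.20 CPM in ++Oxtr replicates 3 and 4, against 8.38 and 64.9 CPM in WT replicates 5 and 6. All 4 libraries had at least 48 counts. WT replicate 5 was above both ++Oxtr libraries: the ratio of ++Oxtr replicate 3 to it was 0.610 (95% interval 0.457 to 0.809), and of ++Oxtr replicate 4 to it 0.382 (0.270 to 0.534). WT replicate 6 was 7.74 times WT replicate 5 (6.48 to 9.29). Means were 4.16 ± 1.35 CPM in ++Oxtr and 36.6 ± 39.9 CPM in WT (SD, n = 2 each). Supt3, which overlaps Runx2 on the other strand in the deposited table, had 333 and 231 counts in ++Oxtr and 321 and 278 in WT, and so did not follow it. No source used here says whether the counting used strand.

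Of 6 other genes of the RUNX list with at least 50 counts, 2 were at least 2-fold higher in WT replicate 6 than in WT replicate 5. Cbfb, the partner subunit of RUNX proteins, was at 144 and 116 CPM in ++Oxtr and 147 and 172 CPM in WT. Runx1, its relative in blood formation, was at 57.3 and 48.5 CPM in ++Oxtr and 51.9 and 58.8 CPM in WT. Spp1, the gene of the matrix protein osteopontin, was at 27.0 and 6.01 CPM in ++Oxtr and 8.98 and 26.8 CPM in WT, so it was as high in ++Oxtr replicate 3 as in WT replicate 6. The 7 osteoblast markers other than Runx2 summed to 26.1 and 43.4 CPM in ++Oxtr and 46.5 and 32.6 CPM in WT. Of these, the osteocalcin gene Bglap had 2 and 1 counts in ++Oxtr and 0 and 1 in WT, and Bglap2 had 0 in all. The bone sialoprotein gene Ibsp, a known Runx2 target, had 0 and 1 counts in ++Oxtr and 1 and 15 in WT. It was the only 1 of these 7 markers highest in WT replicate 6, and its counts were low in every library. The part of bone-forming cells in the Runx2 levels was not tested.

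The regions before the starts of Ptgfr and Runx2 are shown because these genes were high in the same library as Akr1c18. They lie at chr3:151837529-151837778, minus strand, and chr17:44814628-44814877, minus strand, on GRCm38.p6 by RefSeq, each 250 bases, 5′ to 3′. Capitals in Runx2 mark a match to the RUNX motif in its reverse form, ACCACA, from 80 to 75 bases before the start.
Ptgfr: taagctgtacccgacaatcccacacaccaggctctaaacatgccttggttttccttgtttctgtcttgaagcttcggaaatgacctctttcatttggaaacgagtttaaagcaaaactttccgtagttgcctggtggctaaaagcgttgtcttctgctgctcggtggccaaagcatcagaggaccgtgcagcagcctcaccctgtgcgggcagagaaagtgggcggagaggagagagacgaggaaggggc
Runx2: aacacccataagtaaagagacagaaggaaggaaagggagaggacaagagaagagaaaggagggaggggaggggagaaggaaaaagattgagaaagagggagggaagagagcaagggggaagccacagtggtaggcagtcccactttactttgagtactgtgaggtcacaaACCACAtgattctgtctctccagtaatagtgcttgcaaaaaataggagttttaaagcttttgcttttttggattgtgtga
Motifs were searched on both strands, and their background is the share of the 32851 windows of this length that hold a match. The RUNX letters were TGTGGT, present in 14% of windows. For ONECUT factors ATCGAT was sought, present in 0.728%. The nuclear receptors of the NR5A family were given AAGGTCA, present in 4.08%, and GATA factors AGATAA, present in 9.99%. For STAT factors the letters were TTCNNNGAA, where N is any base, present in 7.02%. The TATA box was sought as TATAAA, present in 12.4%. No motif overlapped another in these windows. The sequence table held 6 of the 8 genes, apart from Sfrp4 and Onecut2. Akr1c18, Akr1c14, Parm1 and Ptgfr had no match to any of the 6, Runx2 had the RUNX match, and Lgmn had a RUNX match before each of its 2 listed starts and a TATA match in reverse before 1 of them. A match is a string of letters, not a site shown to be used.

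Lgmn (ENSMUSG00000021190, minus strand of chromosome 12, 102360343 to 102406072 by the deposited table) encodes legumain, a lysosomal protease that cuts after asparagine. It was at 124 and 100.1 CPM in ++Oxtr replicates 3 and 4, against 108 and 373 CPM in WT replicates 5 and 6. The genotypes overlapped, and 3 libraries lay close together. WT replicate 6 was 3.45 times WT replicate 5 (95% interval 3.28 to 3.64). With 0.5 added to each CPM, the ratio was the 112th in rank among the 14999 genes. Means were 112 ± 16.7 CPM in ++Oxtr and 241 ± 188 CPM in WT (SD, n = 2 each).

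No other lysosomal gene with at least 50 counts had such a step within WT. Of 13 other lysosomal protease, cystatin and membrane genes with at least 50 counts, 0 were at least 2-fold higher in WT replicate 6 than in WT replicate 5 and 0 were at most at 0.5 times. Cst6, a cystatin gene with fewer counts, had 7 and 17 in WT replicates 5 and 6, and was named after its values were seen. Cst3, a secreted cysteine protease inhibitor, was at 292 and 259 CPM in ++Oxtr and 288 and 263 CPM in WT. Ctsb, cathepsin B, was at 822 and 1584 CPM in ++Oxtr and 867 and 871 CPM in WT. Lamp1, a protein of the lysosomal membrane, was at 369.8 and 354 CPM in ++Oxtr and 325 and 388 CPM in WT. Macrophages are also rich in legumain, and the 8 macrophage markers summed to 1051 and 736 CPM in ++Oxtr and to 811 and 519 CPM in WT, none of them at 0. The part of macrophages in the Lgmn levels was not tested.

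Parm1 (ENSMUSG00000034981, plus strand of chromosome 5, 91665474 to 91774753 by the deposited table) encodes a mucin-like membrane glycoprotein first found in the rat prostate. It was at 37.1 and 51.0 CPM in ++Oxtr replicates 3 and 4, against 51.2 and 56.4 CPM in WT replicates 5 and 6. The genotypes did not overlap, but ++Oxtr replicate 4 and WT replicate 5 differed by less than counting error, with a ratio of 0.996 (95% interval 0.903 to 1.10). Means were 44.0 ± 9.83 CPM in ++Oxtr and 53.8 ± 3.68 CPM in WT (SD, n = 2 each). WT replicate 6 was 1.10 times WT replicate 5 (1.002 to 1.21).

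**Figure D3:**
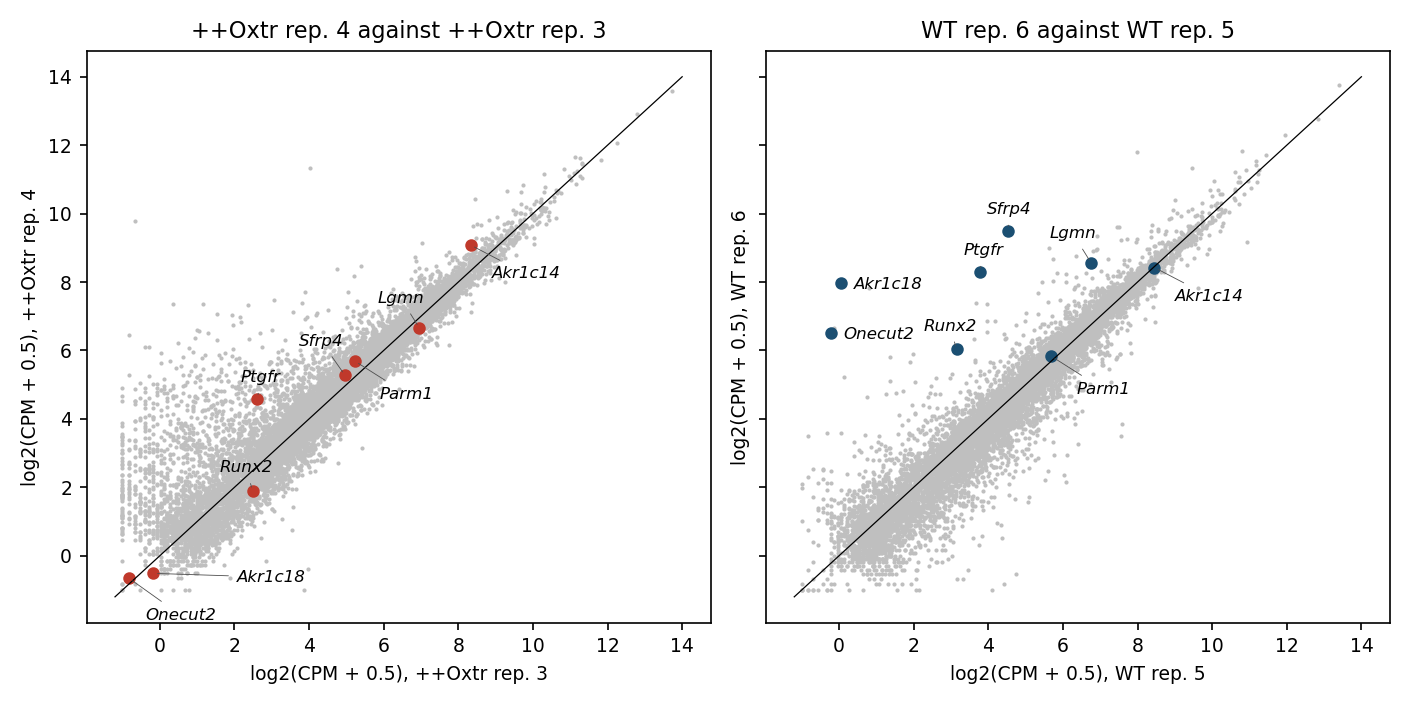
Each grey point is 1 of 14999 genes, with log2(CPM + 0.5) in 1 library of a genotype on each axis (left, ++Oxtr replicate 4 against 3; right, WT replicate 6 against 5) and the line of equal level. The 8 genes lie near the line in ++Oxtr, apart from Ptgfr, while in WT 6 of them lie above it, led by Akr1c18 with the highest ratio of all points.

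The genes with the profile most like that of Akr1c18 were sought by the distance between log2(CPM + 0.5) values centred on each gene's mean over the 4 libraries. The measure is a description over 4 libraries, and genes high in 1 library will score as alike. Onecut2 was nearest, at a distance of 1.03, then Wnt10b (1.12) and Plekhg4 (1.21). A gap followed, to Sfrp4 (3.26), Ptgfr (3.49), Kl (3.70), Lipg (3.77), Megf10 (3.95), Pdzrn4 (4.07) and Runx2 (4.08). Of the other 7 genes under study, 4 were among the nearest 10. Nothing is read from that share, since the levels chose the genes. Lgmn (5.59), Parm1 (6.86) and Akr1c14 (7.33) were farther off, and Akr1c14 and Parm1 were 0.617 from each other.

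Wnt10b, a WNT ligand, had 8 and 0 counts in ++Oxtr replicates 3 and 4 and 7 and 1598 in WT replicates 5 and 6. Plekhg4, a guanine nucleotide exchange factor of the pleckstrin homology family, had 28 and 18 counts in ++Oxtr and 21 and 3636 in WT. Both were thus low in 3 libraries and high in WT replicate 6, as Akr1c18 and Onecut2 were. Kl, the gene of klotho, had 19 and 15 counts in ++Oxtr and 20 and 391 in WT. Lipg, endothelial lipase, had 153 and 170 counts in ++Oxtr and 207 and 2683 in WT. The remaining pair, the engulfment receptor gene Megf10 and the ring finger gene Pdzrn4, had 882 and 418 counts in WT replicate 6 and at most 83 and 33 in any other library. Nearest to Ptgfr were Sfrp4 (1.33), Pdzrn4 (1.36), Megf10 (1.36), Lipg (1.44) and the hyaluronan-handling gene Cemip (1.60). Nearest to Sfrp4 were Megf10 (0.726), Kl (0.859), Lipg (0.908), the liver lectin gene Asgr1 (1.005) and Pdzrn4 (1.08).

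**Figure D4:**
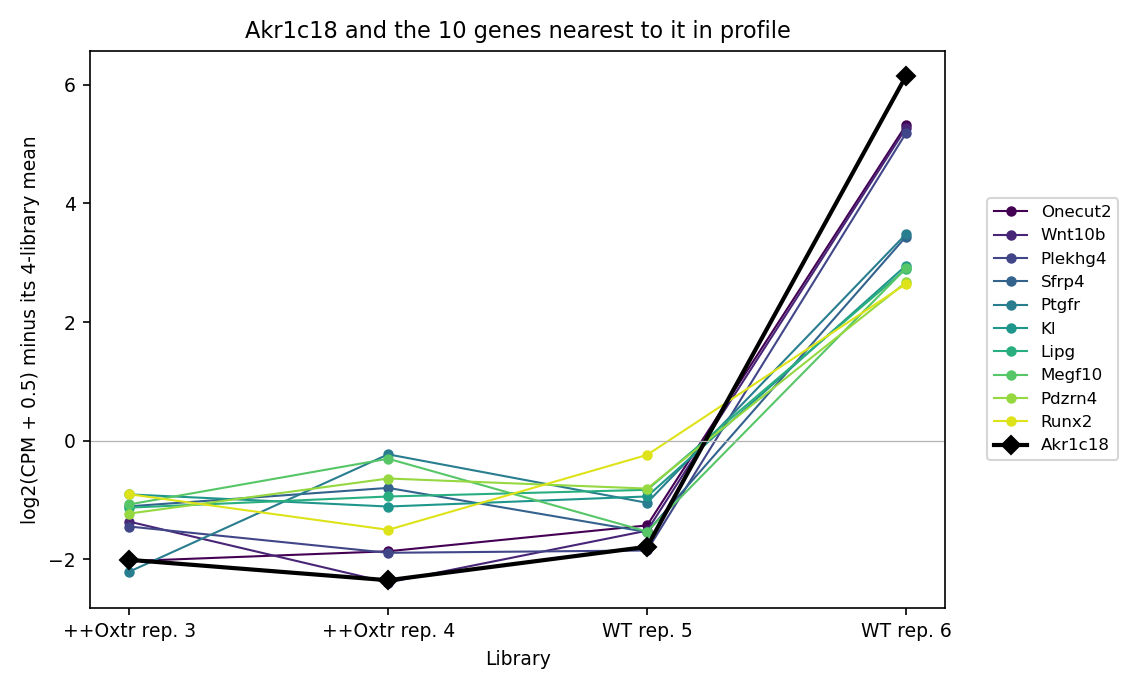
Lines give log2(CPM + 0.5) minus its mean over the 4 libraries for Akr1c18 (black) and the 10 genes nearest to it by distance. Onecut2, Wnt10b and Plekhg4 run close to Akr1c18 (distances of 1.03 to 1.21), and the other 7, from Sfrp4 at 3.26 to Runx2 at 4.08, have a smaller step to WT replicate 6.

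Of the listed regulators of Akr1c18, most had no 2-fold step within WT. Nr5a2, a nuclear receptor of granulosa and luteal cells, was at 508 and 503 CPM in ++Oxtr and 416 and 418 CPM in WT. Its relative Nr5a1 was at 157 and 116 CPM in ++Oxtr and 144 and 295 CPM in WT, and Gata4, a gonadal transcription factor, at 161 and 134 against 134 and 218 CPM. Of 13 such genes 3 were at least 2-fold higher in WT replicate 6 than in WT replicate 5, namely Prlr, Lhcgr and Nr5a1. Lhcgr had the largest step of the 3, at 144 and 216 CPM in ++Oxtr and 48.8 and 513 CPM in WT. Prlr, the prolactin receptor gene, was at 112 and 142 CPM in ++Oxtr and 81.5 and 435 CPM in WT. Stat5b, which carries the prolactin signal, was at 94.1 and 105 CPM in ++Oxtr and 99.6 and 122 CPM in WT. Prlr, Lhcgr and Stat5b are named after their values were seen.

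Many luteal steroid genes were highest in the same library as the 6 high genes. Of 17 such genes 9 were at least 2-fold higher in WT replicate 6 than in WT replicate 5, and 11 had their highest level there. Cyp11a1, the first enzyme of steroid synthesis, was at 553 and 411 CPM in ++Oxtr and 253 and 3555 CPM in WT, a within-WT ratio of 14.1. Hsd3b1, which makes progesterone, was at 1599 and 1556 CPM in ++Oxtr and 1793 and 3636 CPM in WT. Hsd17b1, which reduces estrone in granulosa cells, was at 167 and 231 CPM in ++Oxtr and 239 and 237 CPM in WT. The 8 luteal markers other than the genes under study summed to 2628 and 2573 CPM in ++Oxtr and to 2377 and 9101 CPM in WT. None was at 0, and 7 of the 8 were highest in WT replicate 6. Most of their sum in WT replicate 6 was Cyp11a1 and Hsd3b1, which are also on the steroid list, so the lists are not separate. The 5 theca and interstitial markers also summed highest there, at 1436 and 898 CPM in ++Oxtr and 1041 and 3099 CPM in WT. Most of that sum was Aldh1a1, a retinal dehydrogenase, at 1043 and 555 CPM in ++Oxtr and 703 and 2556 CPM in WT. Of these 5 markers 3 were highest in WT replicate 6. Ptch1 and Gli1, a receptor and a transcription factor of hedgehog signalling, were not, and Gli1 was at 77.4 and 44.7 CPM in ++Oxtr and 59.7 and 35.0 CPM in WT. The marker Cyp17a1, also on the steroid list, was at 74.8 and 100.3 CPM in ++Oxtr and 56.6 and 306 CPM in WT. Cyp17a1 was named after its values were seen. The theca hormone gene Insl3 was at only 0.842 and 0.801 CPM in ++Oxtr and 0.832 and 1.25 CPM in WT. Granulosa markers summed to 4485 and 5618 CPM in ++Oxtr and 4107 and 5898 CPM in WT, and oocyte markers to 707 and 355 CPM in ++Oxtr and 510.1 and 487 CPM in WT, with none at 0, so the defining cells of the labelled tissue were seen in every library. The part of these cell types in the 6 high genes was not tested.

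The list of death, immune and vascular signals of luteal regression held few genes with such a step. Of 19 with at least 50 counts, 2 were at least 2-fold higher in WT replicate 6 than in WT replicate 5. These were Timp1, a metalloprotease inhibitor, at 15.9 and 10.1 CPM in ++Oxtr and 12.01 and 51.9 CPM in WT, and Ccl2, a monocyte chemokine, at 4.34 and 3.07 against 3.57 and 17.7 CPM, both named after their values were seen. The most abundant member, Thbs1, which encodes thrombospondin, was at 552 and 523 CPM in ++Oxtr and 584 and 674 CPM in WT. Tnfrsf1a, a tumour necrosis factor receptor, was at 151 and 132 CPM in ++Oxtr and 130 and 115 CPM in WT. Mmp2, a matrix protease, was at 164 and 157 CPM in ++Oxtr and 97.7 and 135 CPM in WT.

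**Figure D5:**
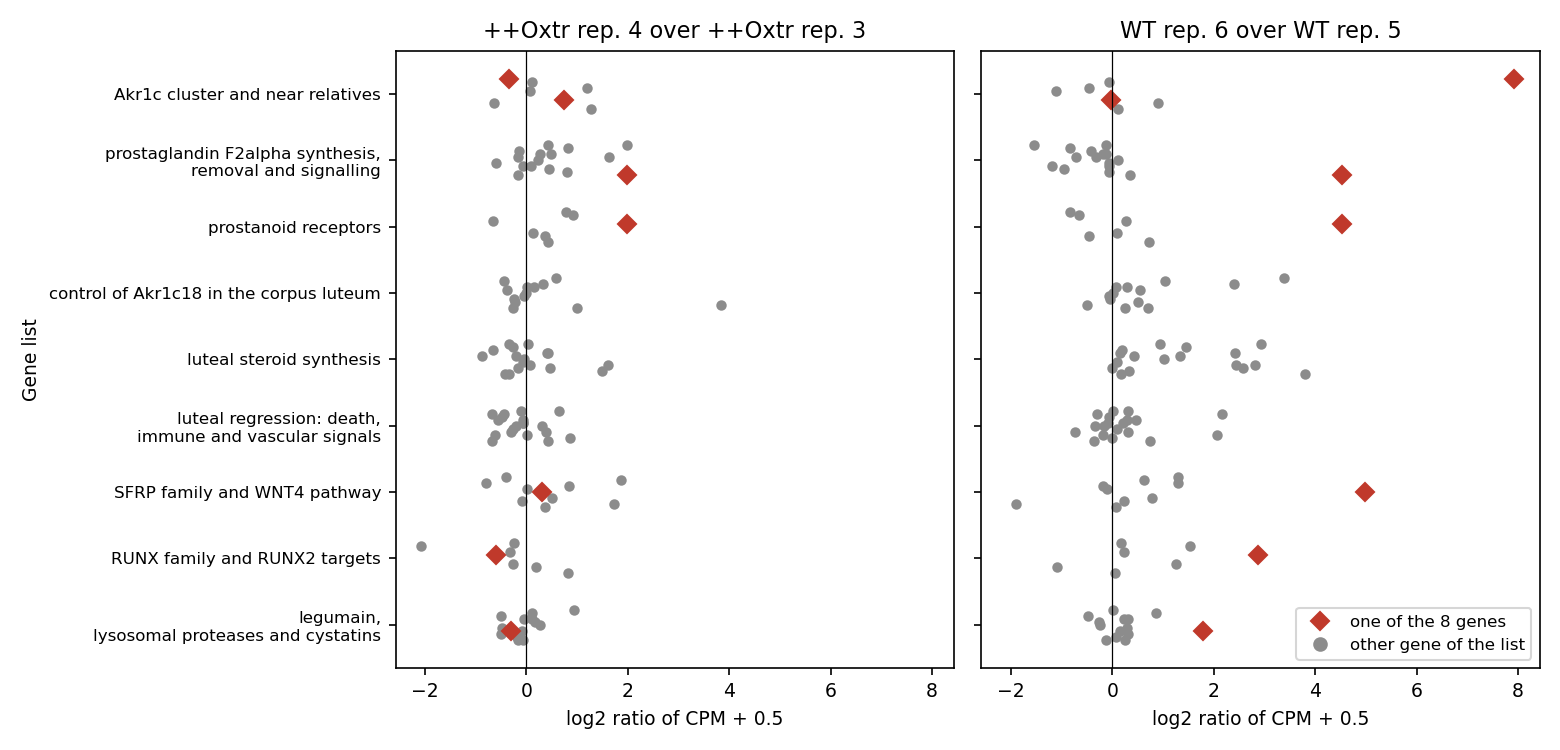
Each point is a gene of a list with at least 50 counts, placed by its log2 ratio of CPM + 0.5 between the 2 libraries of a genotype (left, ++Oxtr replicate 4 over 3; right, WT replicate 6 over 5), with red diamonds for those of the 8 genes that are on a list drawn. On the right, most genes of luteal steroid synthesis lie above 0 (median 1.02), while lysosomal genes (median 0.15) and prostaglandin genes (median -0.18) lie around 0, to the left of their red diamonds.

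Between genotypes, the lists were read from a fit over all genes. Of 15311 genes tested, edgeR's quasi-likelihood test called 0.0% higher and 0.0% lower in ++Oxtr at a Benjamini-Hochberg adjusted p under 0.05. Oxtr, the overexpressed gene, was not called by edgeR either (adjusted p 0.99999), while DESeq2 called it (adjusted p 0.0069). A count of 0 called by edgeR therefore does not show that no gene differed. Akr1c18 and Onecut2, low in every library but WT replicate 6, were removed by the filter on low counts. The edgeR fit thus held 6 of the 8 genes. The 10 pathway lists, without the genes under study, held 107 tested genes, of which 0 were called, 57 had a positive and 50 a negative log2 difference. At an unadjusted p under 0.05 there were 6: Lipe, Frzb, Ptger3, Agtr1a and Fzd4 with more transcript in ++Oxtr and Srd5a1 with less, all named after their values were seen. Over all genes 393 passed that unadjusted threshold. Adipocyte markers stood higher in ++Oxtr, where DESeq2 called 8 of 8 and edgeR 0: all were highest in ++Oxtr replicate 3, their sum was 2006 and 1405 CPM in ++Oxtr, against 190 and 178 CPM in WT, and none was at 0. Lipe, a lipase of fat cells as well as steroid-making cells, was at 67.4 and 42.4 CPM in ++Oxtr, against 23.2 and 26.4 CPM in WT. The part of fat tissue in these levels was not tested. DESeq2, which called 0.366% of genes higher and 0.0164% lower over the whole table, called 0 of these 107 pathway genes. The median log2 difference of luteal steroid synthesis was -0.78, with 12 of 17 genes negative, beside -0.0033 over all genes. Without WT replicate 6 that median was 0.16, so its direction turned. For regulators of Akr1c18 it was -0.12, with 9 of 13 negative, and 0.11 without WT replicate 6. For the prostanoid receptors other than Ptgfr it was 0.85, with 6 of 7 positive, and 0.28 without WT replicate 6. The other medians were 0.09 for prostaglandin F2alpha genes, 0.16 for regression signals, 0.18 for the SFRP and WNT4 list, -0.12 for the RUNX list, 0.11 for lysosomal genes and 0.01 for Akr1c relatives. Of these last 6, all but the regression signals changed sign when 1 library was left out.

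The differences of the 6 high genes between genotypes rested wholly or in large part on WT replicate 6. As a log2 ratio of group means, ++Oxtr over WT, it was -8.74 for Akr1c18, -3.49 for Ptgfr, -3.44 for Sfrp4, -3.14 for Runx2, -8.85 for Onecut2 and -1.10 for Lgmn with all libraries. It was 0.32 for Akr1c14, and -0.10 without ++Oxtr replicate 4, so that direction also turned. For Parm1 it was -0.29, and -0.08 without ++Oxtr replicate 3. Without WT replicate 6 the values were -0.86 for Akr1c18, 0.15 for Ptgfr, 0.61 for Sfrp4, -1.01 for Runx2, -1.85 for Onecut2 and 0.05 for Lgmn. Ptgfr, Sfrp4 and Lgmn thus changed direction. Runx2 kept its direction with a smaller difference, since WT replicate 5 also lay above both ++Oxtr libraries. Akr1c18 and Onecut2 then rested on no more than 9 counts in any library, so that no fold is drawn from them.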

How the data were processed

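RNA of mouse ovary was sequenced in 4 libraries. Per the labels' protocols, libraries were made from total RNA with the NEBNext Ultra II RNA kit, and the extraction text names white adipose tissue although tissue and source are labelled ovary. Per the file headers, the authors deposited a read count, not normalised, and an FPKM value per gene and library. Tested on the file, the FPKM follows from the count, the table's gene length and the library total. The submitters' processing notes name the build mm10. No source used here names the aligner, the counter, the strand setting or the annotation. Of the deposited identifiers, 21850 were found in GENCODE M21 (GRCm38), where 2.35% had the same start and end, so the table's positions are printed as they stand and not combined with GRCm38.

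Groups and replicate numbers come from the sample titles. No label says that each library is a separate animal: p-values then reflect spread among these 4 libraries alone, and that spread may be technical. CPM used TMM factors of edgeR 4.0.16 (R 4.3.3) and library totals of 15229810 to 16517764, at which 3 counts, the floor for a count of 0, are 0.178 to 0.200 CPM. Intervals and floors cover counting error only. The test was edgeR's quasi-likelihood test with filterByExpr (minimum count 10), 2 residual degrees of freedom and Benjamini-Hochberg adjustment. It was also run on simulated counts with the same spread set for every gene. Those counts lack the steps confined to a single library seen here, so that run does not show what the test can call in these data. Alternatives were DESeq2 1.42.0, limma-voom (limma 3.58.1), other scalings, no filter, another offset, and each library left out.

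The 8 genes and all gene lists were chosen with earlier results of these data known. Named genes were the 8, the 10 nearest to Akr1c18 and 5 nearest to Ptgfr and Sfrp4 (at least 50 counts, no predicted genes), all Akr1c relatives, and the 3 of each list with the highest mean FPKM plus any called. Acta2, Aldh1a1, Ptch1, Gli1, Insl3, Bglap, Bglap2, Ibsp, Ptgdr2 and Supt3 were named after their values were seen, and others are marked where named.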

Additional observations from a re-analysis of the deposited data

How the results depend on the processing

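The count of 0 genes called by edgeR between ++Oxtr and WT stayed at 0 with DESeq2 size factors, library totals alone, no filter and limma-voom. With each library left out in turn edgeR called 0 to 65 genes, the 65 (7 higher, 58 lower) without ++Oxtr replicate 4. DESeq2 called 70 genes (67 higher, 3 lower), and with each library left out 55 without ++Oxtr replicate 3, 494 without ++Oxtr replicate 4, 161 without WT replicate 5 and 44 without WT replicate 6. Leaving libraries out of DESeq2 and of the list medians was added after the data were seen. No paired analysis was possible because the genotypes share no replicate number. Another scaling changed no direction among the 8 genes, whose WT replicate 6 to WT replicate 5 ratios are given with TMM. With 2 CPM added in place of 0.5, 9 of the 10 genes nearest to Akr1c18 stayed, and 10 with library totals alone. The prostaglandin F2alpha list's median log2 difference was 0.37 without WT replicate 5 and 0.09 with all libraries. Akr1c18 and Onecut2 had at most 9 counts in 3 libraries, so differences among those were not detectable at this depth.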
